A study of Homo sapiens with 6 samples.

Results

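The genes described here encode factors that build ribosomes. They were chosen by symbol from a list of 52 ribosome biogenesis genes, and 51 of them had a row of their own among the 62016 genes of each deposited table. The exception was PPAN, a factor of the large subunit, whose row was joined with the readthrough gene PPAN-P2RY11 and was not counted. A gene counted as measured in a JMJD1C table where the higher of its group values was at least 1 FPKM (fragments per kilobase of transcript, scaled to sequencing depth) and the authors had tested it. All 51 genes were measured in both JMJD1C tables.

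The mRNA levels came from RNA sequencing of Kasumi-1, an established cell line from human acute myeloblastic leukemia with the fusion gene AML1-ETO. The cells received PLKO virus, which delivers a short hairpin RNA, 4 days before collection: a control shRNA, or shRNA63 or shRNA95 against JMJD1C. Each of these 3 groups had 2 libraries, and nothing in the labels says that they came from separate cultures, so deposited p-values measure only the spread between libraries. The target, JMJD1C, belongs to the KDM3 proteins, which carry a JmjC domain. A separate deposited table compared AML1-ETO shRNA with a control shRNA, 1 library each, from another series. The authors gave 1 FPKM value per group and no value per library, so values below carry no SD. The error of a log2 fold change is its size divided by the authors' test statistic, and a 95% interval is 1.96 errors to each side.

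JMJD1C mRNA stood at 13.7 FPKM with shRNA63 against 30.4 FPKM in its control (q = 0.00214 in the authors' deposited table). The libraries labelled shRNA95 had 25.1 FPKM of it and their control 29.4 FPKM (q = 0.938 in the authors' deposited table), so the mRNA does not check that label. Read depth per library is unknown. Of 8 myeloblast markers 7 were at 1 FPKM or more in every group, among them KIT and CD33, while MPO was listed at 0 throughout with a status that marks a failed estimate. No erythroid marker of 5 reached 1 FPKM, and of the 5 T cell markers only CD3D did. Of 5 B cell markers 3 reached 1 FPKM in the control, none with shRNA63 and 2 with shRNA95. Of 5 fibroblast and epithelial markers 1 did so in every group. The summed level of the myeloblast list was 667 FPKM in the shRNA63 control and 603 with shRNA63, and 646 and 765 FPKM in the shRNA95 table. Single markers of that list moved in opposite directions beneath these sums. With shRNA63, 4 of the 7 were called: KIT fell (log2 fold change -0.87), and PTPRC (1.62), SPI1 (0.72) and CD33 (0.83) rose, in the authors' deposited table. In the libraries labelled shRNA95, PTPRC (2.62), SPI1 (1.63) and CD34 (0.77) were called higher in the authors' deposited table. Of the 7, 4 lay higher there and 3 lower, namely KIT (-0.52), RUNX1T1 (-0.44) and RUNX1 (-0.20), without a call. CD34 lay lower with shRNA63 (-0.55), also without a call. For the T cell list the sums were 9.90 and 3.51 FPKM in the shRNA63 table and 9.59 and 2.58 FPKM in the shRNA95 table. CD3D, at 8.52 FPKM in the shRNA63 control, made up most of that sum and was not called. CD3E lay under 1 FPKM and so was not measured. Its deposited q was 0.0274 with shRNA63 (log2 fold change -1.94) and 0.203 with shRNA95 (-1.07) in the authors' deposited tables. For the B cell list the sums were 6.99 and 2.74, and 6.78 and 5.63 FPKM. CD22 was called lower with both hairpins (q = 0.00214 and 0.00216) and CD79A with shRNA63 (q = 0.0185) in the authors' deposited tables. No B cell marker was above 2.68 FPKM in the control. In these bulk samples, fewer cells of one type and less RNA per cell cannot be told apart, and the part of such markers in the results was not tested.

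Ribosome production starts in the nucleolus, where RNA polymerase I transcribes the precursor of most ribosomal RNA. Small nucleolar ribonucleoproteins modify that precursor, and large sets of assembly factors fold, cut and export it as the small and the large subunit. Cells that grow fast, leukemia cells among them, make many ribosomes, and many of these genes are known targets of the transcription factor MYC.

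The promoters of 5 genes are shown because these genes carried the lowest p-values in a JMJD1C table and had an entry in the RefSeq promoter table. POLR1B, RRP9, GAR1 and DDX10 had an unadjusted p under 0.05 with shRNA63, and EBNA1BP2 had one with shRNA95. Each sequence holds the 250 bases before the annotated start, from RefSeq on GRCh38.p14. Capitals mark matches to 4 motifs, searched on both strands: CACGTG (E-box), CCGGAAG (ETS), TGTGGT (RUNX) and the NRF1 motif (the capitals in the DDX10 promoter).
POLR1B (chr2:112541786-112542035, plus strand): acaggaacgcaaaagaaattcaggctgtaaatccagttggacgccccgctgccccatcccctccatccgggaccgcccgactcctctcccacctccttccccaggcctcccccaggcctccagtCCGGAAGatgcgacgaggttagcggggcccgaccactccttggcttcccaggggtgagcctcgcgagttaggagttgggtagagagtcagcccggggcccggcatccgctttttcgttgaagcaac
RRP9 (chr3:51941905-51942154, minus strand): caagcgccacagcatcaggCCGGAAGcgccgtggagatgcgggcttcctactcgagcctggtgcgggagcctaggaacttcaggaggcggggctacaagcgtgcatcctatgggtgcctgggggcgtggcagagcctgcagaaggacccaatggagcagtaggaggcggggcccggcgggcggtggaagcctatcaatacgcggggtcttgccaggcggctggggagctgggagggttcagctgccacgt
GAR1 (chr4:109815260-109815509, plus strand): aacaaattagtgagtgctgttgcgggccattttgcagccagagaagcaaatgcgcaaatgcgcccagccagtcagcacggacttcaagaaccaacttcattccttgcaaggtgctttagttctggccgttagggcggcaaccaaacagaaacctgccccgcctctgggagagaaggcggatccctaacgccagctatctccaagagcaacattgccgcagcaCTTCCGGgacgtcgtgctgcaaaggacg
DDX10 (chr11:108664819-108665068, plus strand): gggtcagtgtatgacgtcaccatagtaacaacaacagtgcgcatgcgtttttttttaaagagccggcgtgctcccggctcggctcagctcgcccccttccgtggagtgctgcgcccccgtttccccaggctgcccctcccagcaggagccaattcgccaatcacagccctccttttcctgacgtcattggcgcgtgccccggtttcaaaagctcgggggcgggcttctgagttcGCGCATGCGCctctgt
EBNA1BP2 (chr1:43172571-43172820, minus strand): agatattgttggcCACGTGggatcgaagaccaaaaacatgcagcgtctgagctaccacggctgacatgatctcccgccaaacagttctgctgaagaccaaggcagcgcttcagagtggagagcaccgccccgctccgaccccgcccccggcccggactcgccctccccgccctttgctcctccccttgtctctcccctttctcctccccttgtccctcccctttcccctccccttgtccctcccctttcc

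The promoters of POLR1B, RRP9 and GAR1 each held 1 ETS match. Counted from the start, it lay at -126 to -120 in POLR1B, at -231 to -225 in RRP9 and, as the reverse complement, at -28 to -22 in GAR1. DDX10 held an NRF1 match at -16 to -7 and EBNA1BP2 an E-box at -237 to -232. Of the 43 genes with a promoter entry, 12 (27.9%) held the ETS letters, against 17.1% of 8513 promoters of genes measured in the shRNA63 table and 8.52% of all 35116 promoters. The NRF1 letters were in 4 (9.30%), against 2.15% and 1.03%. An E-box was in 5 (11.6%), against 9.34% and 6.35%, and the RUNX letters in 5 (11.6%), against 7.72% and 10.98%. The median share of G and C was 62.8% in the 43 promoters and 58% in all promoters. Its part in the motif shares was not tested. None of the 4 motifs was found for 21 genes. The 5 genes with an E-box were NOP10, NAT10, UTP20, UTP14A and EBNA1BP2. Their median log2 fold change in the authors' deposited tables was -0.04 with shRNA63 and 0.10 with shRNA95, against -0.12 and 0.11 for the 38 without one. A match describes these letters in this window and not the binding of a factor.

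All 51 genes were expressed well above the low end of the table. In the control of the shRNA63 table their levels ran from 14.9 to 4742 FPKM with a median of 60.5 FPKM, while the median of all 14475 measured genes was 14.02 FPKM. NPM1, which encodes the abundant nucleolar chaperone nucleophosmin, held 49.8% of the summed FPKM of the group. It was followed by NCL (nucleolin) at 629, FBL (fibrillarin) at 455.7 and NOP56 at 379 FPKM. The lowest were UTP20 at 14.9, NOL6 at 15.4, UTP14A at 15.9 and RRP12 at 16.2 FPKM, all of them factors of the small subunit. The genes lay on 20 chromosomes, and 9 of them on chromosome 2. Only 17 had a locus to themselves in the tables. The other 34 shared theirs with up to 18 other genes, among them small nucleolar RNA genes in the introns of NOP56, NOP58, NCL and DKC1, so their values can include reads of neighbours. The median error of the log2 fold change with shRNA63 was 0.27 for the 17 and 0.31 for the 34.

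**Figure D1:**
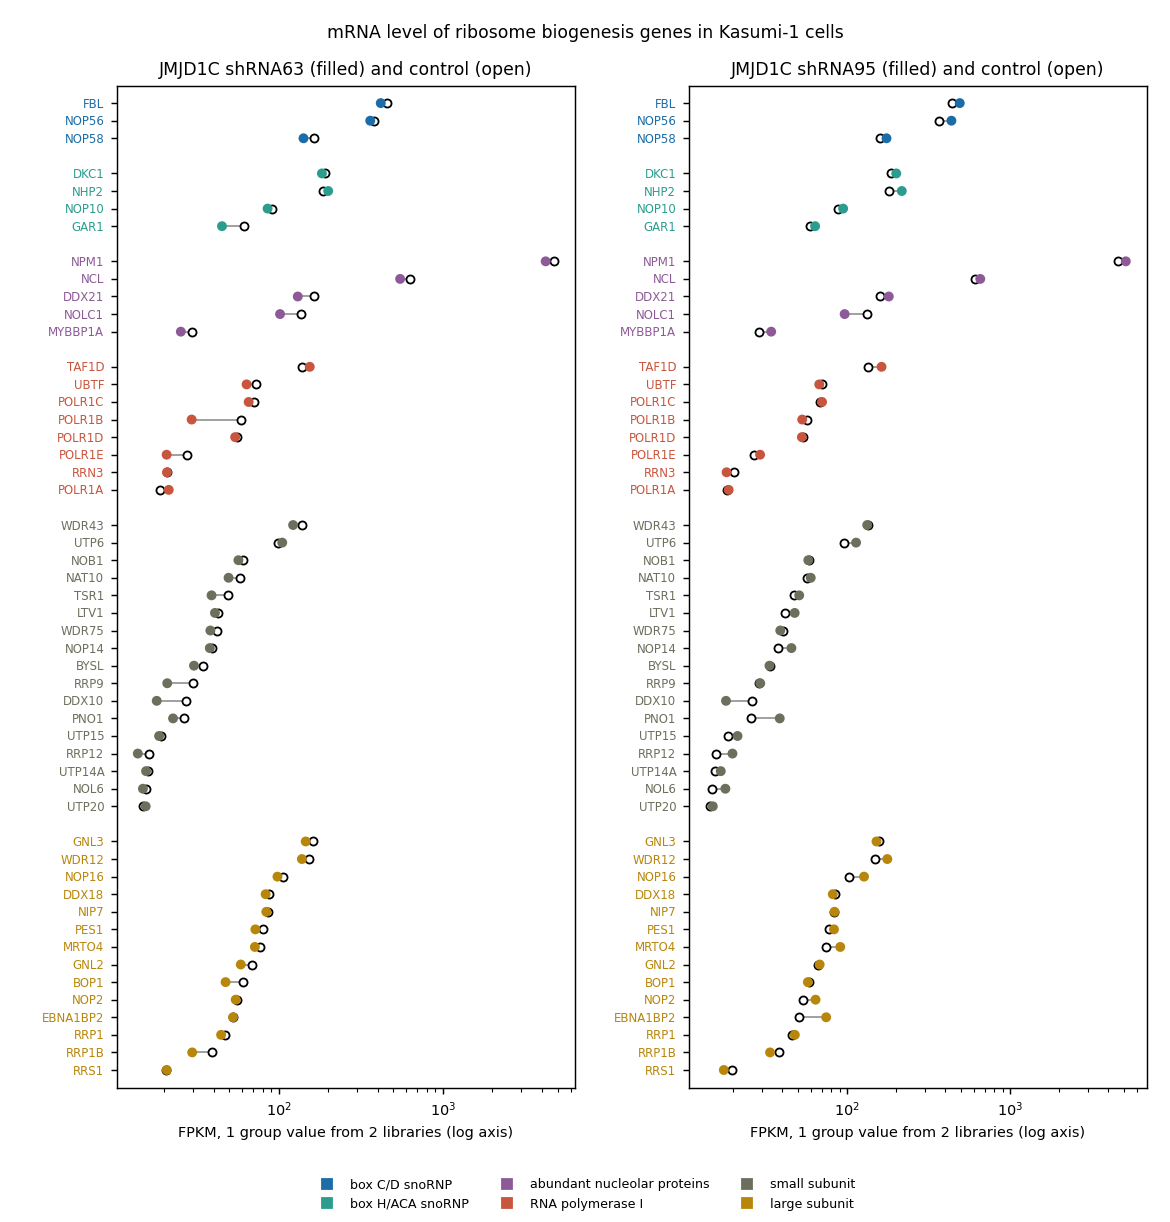
Level of the 51 ribosome biogenesis genes in FPKM (log axis), with the control shRNA as open circles and JMJD1C shRNA63 (left) or shRNA95 (right) as filled circles; each circle is 1 group value made from 2 libraries, and colours mark the role. POLR1B shows the widest gap on the left, from 58.6 to 29.4 FPKM, and lies at 56.8 and 53.1 FPKM on the right.

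With shRNA63, 1 of the 51 genes was called lower and none higher, where a call is a deposited q under 0.05. The gene was POLR1B, which encodes the second-largest subunit of RNA polymerase I. This is 1.96% of the genes, against 3.25% of measured genes called lower and 2.49% called higher (5.74% in all). A single call among 51 genes is near these shares and is not a result about the list. A q under 0.10 was reached by POLR1B and RRP9, and by 7.43% of measured genes. At an unadjusted p under 0.05, 6 genes were lower (11.8%, against a background of 7.39%) and none was higher (background 6.99%). These 6 were POLR1B, RRP9, GAR1, DDX10, RRP1B and POLR1E. The values of the list lay slightly below control: 44 of 51 log2 ratios, computed as log2((FPKM + 1)/(control FPKM + 1)), were negative (86.3%), against 48.9% of all measured genes. Their median was -0.12, against 0.01 for all measured genes. The group values ran from 50.2% to 112% of control with a median of 91.7%, and 41 of 51 were between 80% and 125%. For 37 genes the 95% interval lay within a 2-fold change in either direction, and for the other 14 a change of that size was not excluded at this precision.

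In the libraries labelled shRNA95 none of the 51 genes was called, against 5.04% of measured genes. A q under 0.10 was reached by EBNA1BP2 alone, and by 6.48% of measured genes. At an unadjusted p under 0.05 the deposited test gave NOLC1 and DDX10 lower (3.92%, background 5.29%) and EBNA1BP2 higher (1.96%, background 7.98%). Here 36 of 51 log2 ratios were positive, against 54.0% of all 14391 measured genes, and the median was 0.10 against 0.03. The 17 genes alone in their locus had 10 positive ratios (58.8%) and a median of 0.03, close to all genes, while the 34 that share a locus had 26 (76.5%) and 0.12. With shRNA63 the medians of these sets were -0.13 and -0.11. Genes of high level lay above 0 in this table as a whole: of 6229 genes with at least 20 FPKM, 60.0% had positive ratios, with a median of 0.08. Centred on those genes, 29 of 51 ratios were positive and 22 negative, with a median of 0.02. Centred the same way, 43 of 51 remained negative with shRNA63, where the median was -0.11. The levels ran from 68.9% of control (DDX10) to 151% (PNO1), and for 38 genes the interval lay within a 2-fold change.

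**Figure D2:**
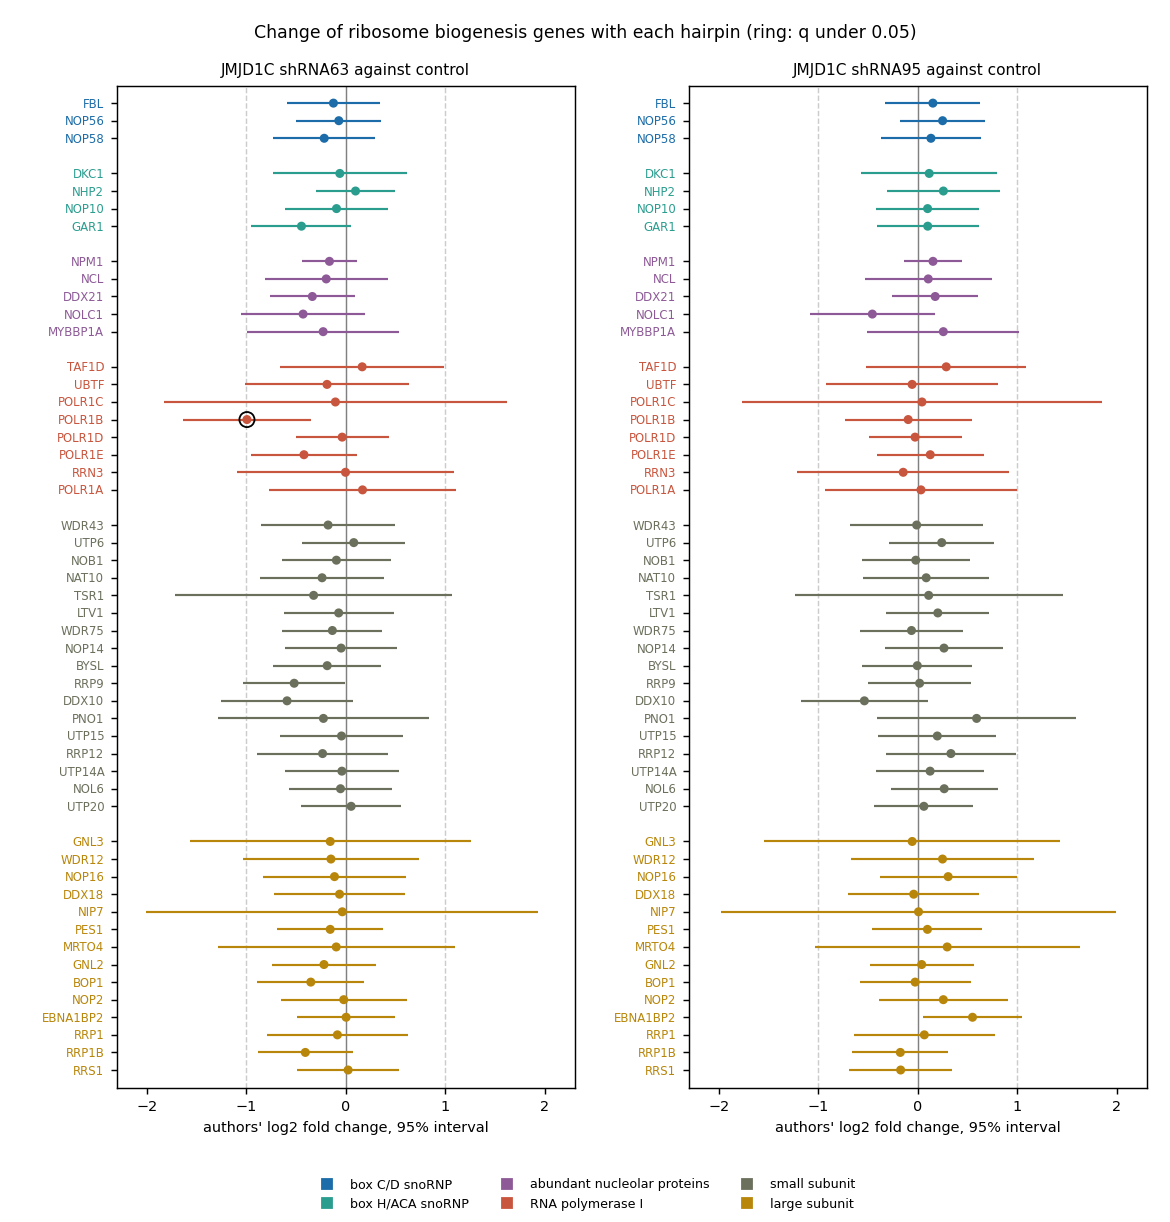
Log2 fold change of the 51 genes against control in the authors' deposited tables, with bars for the 95% interval; colours mark the role, dashed lines a 2-fold change and the ring a q under 0.05. Most points on the left lie a little below 0 and most on the right a little above it, and the only ring is POLR1B with shRNA63.

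RNA polymerase I and its factors included the one called gene. POLR1B stood at 58.6 FPKM in the control and 29.4 FPKM with shRNA63. Its level with the hairpin was 50.2% of control. The log2 fold change was -0.99 (error 0.33, 95% interval -1.64 to -0.35, q = 0.00981) in the authors' deposited table. POLR1B lies on chromosome 2 from 113299491 to 113334635 in hg19, as the tables give it, and no other gene shares that locus. In the libraries labelled shRNA95 POLR1B was at 53.1 against 56.8 FPKM, a log2 fold change of -0.10 (error 0.33, 95% interval -0.74 to 0.54) in the authors' deposited table. That interval does not hold the value of -0.99 measured with shRNA63, but it overlaps the shRNA63 interval of -1.64 to -0.35. The difference between the hairpins was -0.90 (error 0.46), with an unadjusted p of 0.0529 and a Benjamini-Hochberg adjusted p of 0.935 over 13870 genes by the normal test on both fold changes. The unadjusted p was 0.0187 with errors scaled to the deposited p and 0.00620 with the shared control part removed, and the adjusted p 0.354 and 0.110. Removal of that part assumed that control and hairpin libraries add equal variance for every gene, which was not tested. So the call with one hairpin and not the other is not shown to be a difference between them.

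No partner of POLR1B was called. POLR1A, the largest subunit, which forms the catalytic core with POLR1B, went from 19.0 in the control to 21.3 FPKM with shRNA63, and in the other table from 18.4 to 18.8 FPKM. POLR1C was at 70.4 and 65.5 FPKM with shRNA63 and POLR1D at 55.6 and 54.2 FPKM; both subunits are shared with RNA polymerase III. POLR1E, a subunit of the initiation and elongation module, stood at 27.7 and 20.7 FPKM with shRNA63 (unadjusted p = 0.0360, q = 0.305 in the authors' deposited table) and at 26.9 and 29.3 FPKM with shRNA95. None of these passed the test. UBTF, which binds ribosomal DNA, lay at 87.7% and 96.1% of control with the hairpins, and RRN3, which recruits the polymerase, at 99.8% and 90.3%. TAF1D, a subunit of the promoter selectivity complex, was at 112% and 122%. Its locus holds 18 other genes, 12 of them small nucleolar RNAs, and that of RRN3 holds 9 others. Outside the list, the polymerase subunit genes ZNRD1, TWISTNB and CD3EAP and the factors TAF1A, TAF1B, TAF1C and TTF1 were not called with either hairpin. Among them CD3EAP was lowest with shRNA63, at 1.66 against 2.99 FPKM, with an error of 1.12 on the log2 scale.

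Small nucleolar ribonucleoproteins were measured through 7 genes. Box C/D particles methylate ribosomal RNA, with FBL as the methyltransferase and NOP56 and NOP58 as core proteins. FBL was at 455.7 FPKM in the control and 418.1 with shRNA63, and at 441.7 and 490.6 FPKM with shRNA95. NOP56 went from 379 to 361 FPKM and from 367 to 436 FPKM. NOP58 stood at 164 and 141 FPKM and at 159 and 174 FPKM. All 3 were thus a little under control with shRNA63 and a little over it with shRNA95, none was called, and every interval lay within a 2-fold change. Box H/ACA particles convert uridine to pseudouridine, with DKC1 (dyskerin) as the enzyme and NHP2, GAR1 and NOP10 as its partners. DKC1 was at 191 and 183 FPKM with shRNA63 and at 185 and 200.2 FPKM with shRNA95. NHP2 was higher than control with both, at 107% and 120%, and NOP10 was at 93.7% and 107%. GAR1 had the lowest ratio to control of these 7 genes, 45.0 against 61.4 FPKM with shRNA63 (unadjusted p = 0.0142, q = 0.170 in the authors' deposited table), and was at 63.7 against 59.4 FPKM with shRNA95.

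The abundant nucleolar proteins were under control with shRNA63 in 5 of 5 genes, with a median log2 ratio of -0.22, and none was called. NPM1 was at 4742 and 4232 FPKM with shRNA63 and at 4597 and 5110 FPKM with shRNA95. Its errors, derived from test statistics of -1.18 and 1.04, were the smallest of the list, 0.14 and 0.15 on the log2 scale. The p-values of the authors' deposited test, 0.458 and 0.525, were larger than a normal test on those statistics gives. For NPM1 these errors are thus the narrower reading. NCL was at 629 and 549 FPKM and at 609 and 655 FPKM. DDX21, an RNA helicase that links transcription by the polymerase with RNA processing, stood at 165 and 130 FPKM with shRNA63 (unadjusted p = 0.0501, q = 0.372 in the authors' deposited table) and at 160 and 180 FPKM with shRNA95. NOLC1, a chaperone of small nucleolar ribonucleoproteins, was the one gene of these 5 under control in both tables. It went from 137 to 102 FPKM and from 133 to 96.7 FPKM, with unadjusted p of 0.0584 and 0.0469 and q of 0.405 and 0.394 in the authors' deposited tables. Both comparisons use the same control libraries, so these values are not independent. MYBBP1A, a nucleolar protein that binds MYB, was at 85.4% and 119% of control.

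Of 17 genes of the small subunit 15 had negative ratios with shRNA63 and 5 with shRNA95, with medians of -0.13 and 0.11, and none was called. RRP9, a protein of the U3 small nucleolar ribonucleoprotein, had the smallest p among them, 29.9 FPKM in the control and 20.9 with shRNA63. The log2 fold change was -0.52 (error 0.26, q = 0.0743) in the authors' deposited table, just above the threshold. With shRNA95 RRP9 was at 29.4 against 29.0 FPKM. DDX10, an RNA helicase, was lower than control with both hairpins, at 18.0 against 27.1 FPKM and at 18.1 against 26.3 FPKM. Its unadjusted p was 0.0179 and 0.0232 and its q 0.198 and 0.256 in the authors' deposited tables, and the controls are shared here too. PNO1, which takes part in late maturation of the small subunit, was highest with shRNA95, at 38.7 against 25.7 FPKM, but its error of 0.51 on the log2 scale was large and its locus holds 4 other genes. It was at 22.7 against 26.5 FPKM with shRNA63. WDR43, the most abundant gene of this set, was at 138 and 122 FPKM with shRNA63 and at 134 and 133 FPKM with shRNA95. UTP6 was the highest with shRNA63, at 106% of control, and NAT10, the RNA acetyltransferase, was at 84.8% and 106%. NOB1, the nuclease that makes the end of the mature small-subunit RNA, was at 93.7% and 98.6%. BYSL, LTV1, NOL6, NOP14, RRP12, TSR1, UTP14A, UTP15, UTP20 and WDR75 ranged from 79.9% (TSR1) to 104% (UTP20) with shRNA63 and from 95.7% (WDR75) to 126% (RRP12) with shRNA95.

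For the large subunit, 12 of 14 ratios were negative with shRNA63 and 5 with shRNA95, with medians of -0.10 and 0.05, and none was called. EBNA1BP2, an assembly factor, was at 52.5 and 52.6 FPKM with shRNA63 and, with shRNA95, at 74.5 against 50.9 FPKM in the control. The log2 fold change there was 0.55 (error 0.26, unadjusted p = 0.00305, q = 0.0636) in the authors' deposited table and missed the threshold. RRP1B was at 29.7 against 39.3 FPKM with shRNA63 (unadjusted p = 0.0180, q = 0.199 in the authors' deposited table) and at 33.7 against 38.1 FPKM with shRNA95. BOP1, PES1 and WDR12 form one complex that is needed to mature the large subunit. BOP1 was at 78.4% and 98.2% of control, PES1 at 89.7% and 107%, and WDR12 at 90.2% and 119%. GNL3 (nucleostemin), the most abundant gene of this set, was at 163 and 146 FPKM and at 158 and 151 FPKM, with an error of 0.72 on the log2 scale with shRNA63, and shared its locus with 13 other genes. NIP7 had the largest error of the list, 1.005 on the log2 scale with shRNA63, at a locus with 18 others, so a 2-fold change of it could not be detected. RRS1 was at 102% and 88.7%, and NOP2, an RNA methyltransferase, at 98.6% and 119%. NOP16, RRP1, DDX18, GNL2 and MRTO4 ranged from 85.9% (GNL2) to 95.7% (DDX18) with shRNA63 and from 97.2% (DDX18) to 124% (NOP16) with shRNA95. The joined row of PPAN stood at 55.7 and 45.4 FPKM and at 53.9 and 55.4 FPKM.

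Other genes of ribosome production were read beside the 51. Of 90 further biogenesis factors, 71 had negative ratios with shRNA63 and 31 with shRNA95, with medians of -0.15 and 0.09. WDR36, a factor of the small subunit, was the only one called, lower with shRNA63 at 17.4 against 26.8 FPKM (q = 0.0343 in the authors' deposited table). With shRNA95 WDR36 was at 27.2 against 25.9 FPKM. Calls were thus 1 of 90 with shRNA63 and 0 of 90 with shRNA95, against 5.74% and 5.04% of measured genes. Genes of the ribosomal proteins themselves had the opposite sign with shRNA63: 66 of 79 rows had positive ratios, with a median of 0.10. None was called, against 5.74% of measured genes. These counts are of rows and not of genes, since RPL36A had several. At an unadjusted p under 0.05 in the deposited test, 3 rows were higher and 1 was lower, against 6.99% and 7.39% of measured genes. In the libraries labelled shRNA95, 63 of 80 rows were positive with a median of 0.06. Centred on genes with at least 20 FPKM, the median turned to -0.01 with 44 rows negative. With shRNA63 the median was 0.11 under that centring. Many ribosomal protein genes have near-identical pseudogene copies, so their FPKM is uncertain. MYC stood at 260 against 374 FPKM with shRNA63 (q = 0.104 in the authors' deposited table) and at 335 against 363 FPKM with shRNA95, and was not called.

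**Figure D3:**
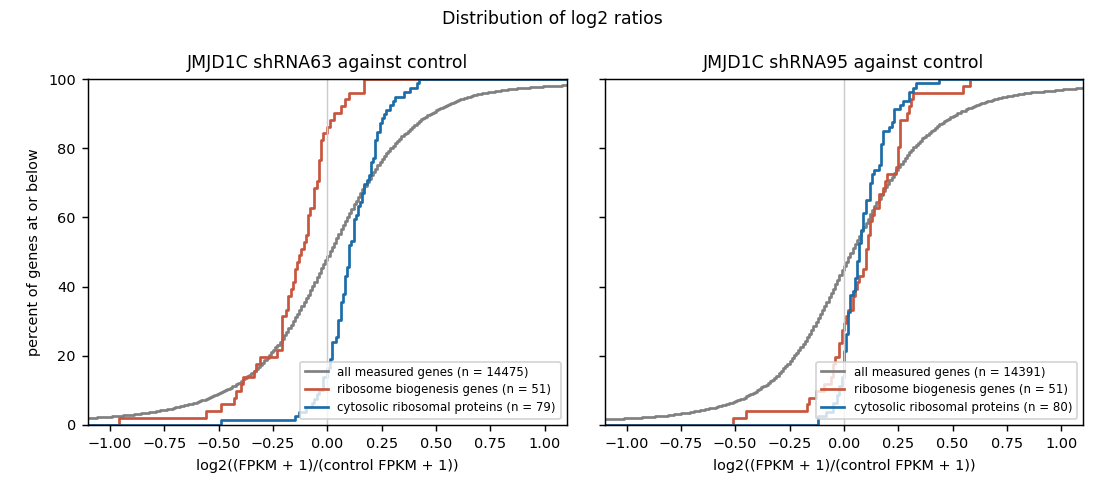
Cumulative share of genes (percent) by log2 ratio to control, for shRNA63 (left) and shRNA95 (right). The lists are ribosome biogenesis genes (51), cytosolic ribosomal proteins (79 and 80 rows) and all measured genes (14475 and 14391). On the left the biogenesis genes rise before 0 (median -0.12) and the ribosomal proteins after it (median 0.10), and on the right both lists lie close together (medians 0.10 and 0.06).

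Between the hairpins, none of the 51 genes differed at an adjusted p under 0.05 by the normal test with Benjamini-Hochberg adjustment, against 1.08% of 13870 genes. None did so at an unadjusted p under 0.05 either, where 3.55% of genes were lower and 1.88% higher with shRNA63. That count of 0 depended on the errors used. It was 3 (POLR1B, RRP9 and GAR1, all lower with shRNA63) with errors scaled to the deposited p, where 5.26% of genes were lower. With the shared control part removed, on the assumption of equal variance, it was 6 (these and DDX21, EBNA1BP2 and POLR1E, all lower). There 6.93% of genes were lower, and none of the 51 passed adjustment in either case. With the errors first given, the smallest adjusted p was 0.935. The difference of fold changes was negative for 47 of 51 genes, with a median of -0.25, against 54.1% of all genes and a median of -0.04. Genes with at least 20 FPKM had median log2 ratios of -0.01 with shRNA63 and 0.08 with shRNA95. The difference was not centred on those genes, so the part of level in it was not tested. PNO1 (-0.82), RRP12 (-0.57), EBNA1BP2 (-0.55), POLR1E (-0.55) and GAR1 (-0.55) followed POLR1B. Only for 16 of 51 genes did the interval of the difference lie within a 2-fold change, so for the others a difference of that size is not excluded. The errors were small enough for a 2-fold difference to reach an unadjusted p under 0.05 in 38 of the 51.

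In the AML1-ETO comparison none of the 51 genes was called in the authors' deposited table, where 0.411% of tested genes were (0.58% at a q under 0.10). The log2 fold change was negative for 44 of 51 genes (86.3%), against 50.9% of all genes. No FPKM filter was applied to that base, so the sets may differ in level, which was not tested. The median of the 51 was -0.23, against -0.01 for all genes. RRP1B was the lowest, at -0.99 (error 0.49, unadjusted p = 0.0451, q = 0.721) in the authors' deposited table, and the only one with an unadjusted p under 0.05, where 3.2% of genes were lower at that level and 3.46% higher. NOLC1 followed with -0.66, WDR43 with -0.63 and RRN3 with -0.58, while FBL had the highest value, 0.24, in the authors' deposited table. For POLR1B the authors' deposited table gave -0.52 with an error of 0.64. Of the other 90 biogenesis factors 89 were tested, with a median of -0.23 and 69 negative values. Of 80 tested rows of ribosomal protein genes, 63 had positive values with a median of 0.14, while 49.1% of all genes were positive. With 1 library in each group the error was about 0.60 at the median, and for only 1 of the 51 genes did the interval lie within a 2-fold change. RUNX1 (AML1) and RUNX1T1 (ETO) had log2 fold changes of -0.86 and -1.04 in the authors' deposited table, without a call. Their mRNA thus does not check the label of this knockdown. This comparison has no replicate check and compares 2 libraries, not the conditions. It shares no libraries with the JMJD1C tables. Across the 51 genes, which are not replicates, its log2 fold changes had a Pearson correlation of 0.23 with those of shRNA63 and 0.36 with those of shRNA95, and Spearman correlations of 0.14 and 0.33.

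**Figure D4:**
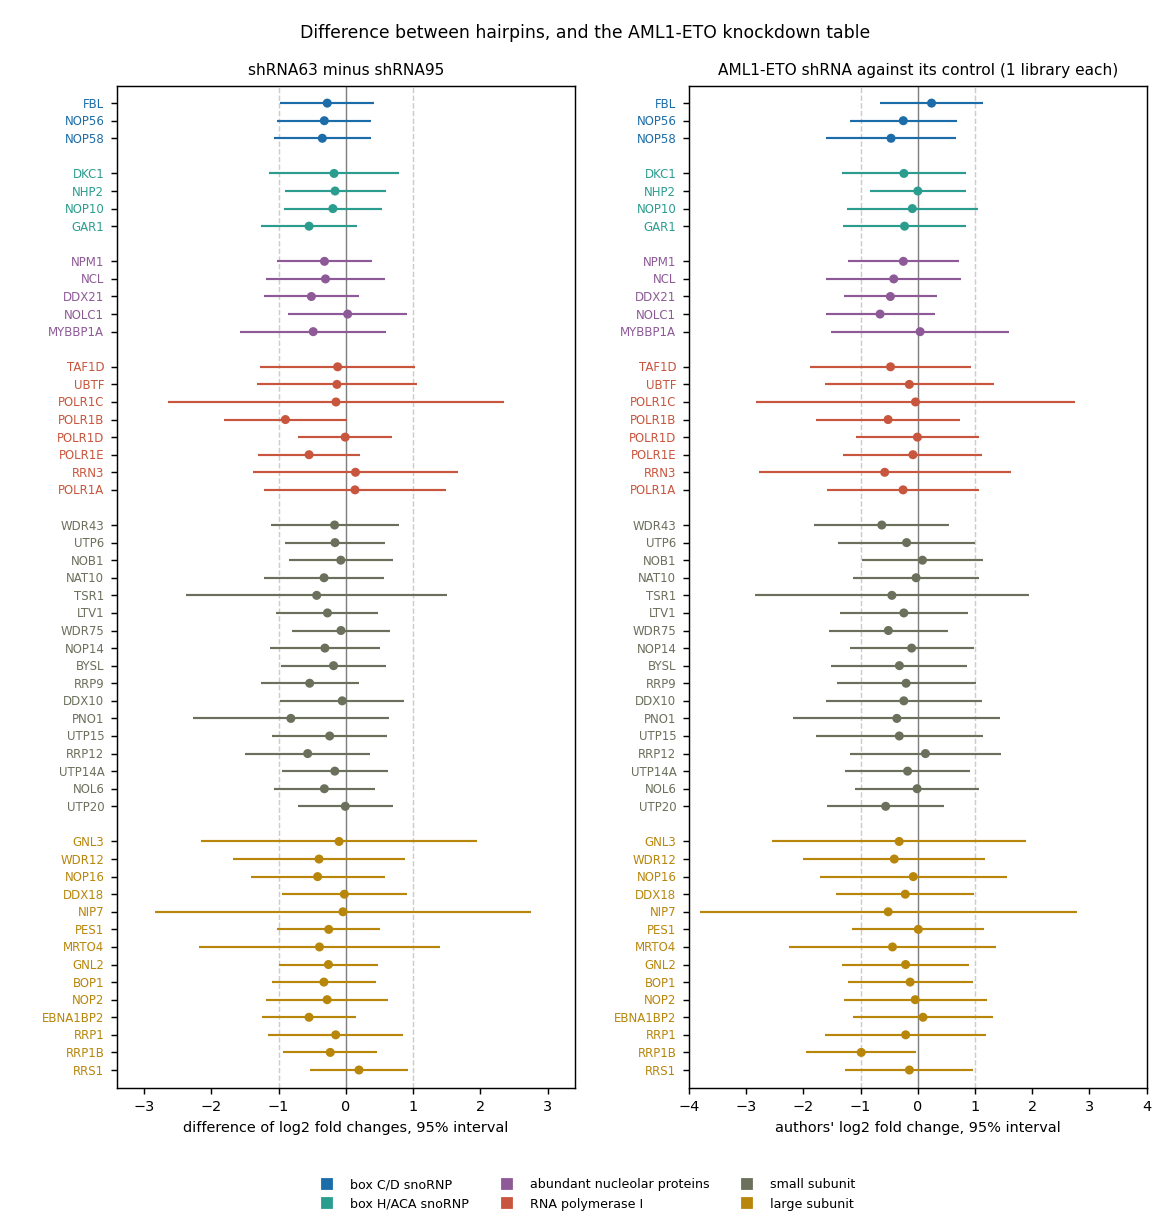
For each of the 51 genes, the difference of log2 fold changes between the hairpins (left) and the log2 fold change of AML1-ETO shRNA against its control, 1 library each (right), with bars for the 95% interval; dashed lines mark a 2-fold change. On the left all intervals include 0, with POLR1B nearest to excluding it, and on the right RRP1B alone lies wholly below 0.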

How the data were processed

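RNA sequencing libraries of Kasumi-1 cells, 2 per group in 3 groups, were grouped by their titles. The submitters' processing notes name TopHat2 2.0.8b, Cuffdiff 2.1.1 and hg19, with no role or order. The authors deposited 3 tables of 62016 genes. In the JMJD1C tables the FPKM values are 1 per group, into which the authors combined 2 libraries. The deposited log2 fold change, test statistic (a score per gene), p-value and q-value were used as given, per the file headers. The 2 FPKM columns of the AML1-ETO table belong to another series and were not used, so the 1 FPKM filter was not applied to it. Strand and depth are not given in the sources used here.

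Members and lists were chosen with earlier results of these data known. A gene was called at a deposited q under 0.05; no test across libraries could be made from group values. Ratios used a pseudocount of 1 FPKM, which understates the change of low genes. For the difference between hairpins, errors under the 10th percentile were raised to it and the shared control made the test conservative. Where the shared control part was removed, control and hairpin libraries were taken to add equal variance for every gene. The test was also run on simulated fold changes drawn independently with these same errors. Those hold no shared control, so that run cannot check the test on the real data. The test is a normal approximation with 2 libraries per group, since an exact test needs values per library. At the median over these genes, the normal deviate of the deposited p was 1.41 times the statistic with either hairpin. There the errors given are the wider reading, but for NPM1 they are the narrower one. 2 rows of BOP1 and DKC1 on patch sequences were left out. Named genes were those called, those with an unadjusted p under 0.05, the highest, lowest and most abundant of each role, and all of small role groups; further members are given by value to account for the list. Promoter letters came from RefSeq on GRCh38.p14 and were not joined to hg19 coordinates. A planned summary of protein sequences was not made. Python 3.11.15, numpy 2.4.6, pandas 2.3.3 and scipy 1.17.1 were used. Alternatives varied the q threshold, FPKM minimum, pseudocount, centring and errors.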

Additional observations from a re-analysis of the deposited data

Results flagged for a closer look

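MYCN, a MYC family transcription factor, is no member of the list but was read beside it, and its change differed between the hairpins by 1.81 on the log2 scale (shRNA63 minus shRNA95) by the normal test of the difference. The error was 0.37 and the Benjamini-Hochberg adjusted p over 13870 genes was 0.000347. That test is a normal approximation from group values of 2 libraries each, and an exact test needs values per library. MYCN stood at 13.4 against 12.5 FPKM with shRNA63 and at 3.70 against 12.1 FPKM in the libraries labelled shRNA95. It was called lower in the latter (log2 fold change -1.71, q = 0.00216) and in the AML1-ETO comparison (-3.49, q = 0.0178) in the authors' deposited tables.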

How the results depend on the processing

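No paired analysis was possible because the tables hold 1 value per group and none per library, and for the same reason no library could be left out. With a q threshold of 0.10 the calls among the 51 genes rose from 1 to 2 with shRNA63, where RRP9 joined POLR1B, and from 0 to 1 with shRNA95, where EBNA1BP2 was called. With a threshold of 0.01, a minimum of 5 FPKM, no minimum, or adjustment over genes with at least 1 FPKM, the counts were 1 and 0 as before. For AML1-ETO the count was 0 at each of the 3 thresholds. Chosen after the data were seen, leaving out genes that share a locus gave 1 and 0 calls and moved the median ratio from -0.12 to -0.13 with shRNA63 and from 0.10 to 0.03 with shRNA95, and adding the joined PPAN row gave -0.13 and 0.10. The difference between hairpins gave 0 of 51 genes with errors scaled to the deposited p, with errors as derived and with the shared control part removed; POLR1B then had adjusted p of 0.354, 0.808 and 0.110. At an unadjusted p under 0.05 the count was 3, 0 and 6 in the same order, against 0.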

Other observations

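RNA polymerase III makes transfer RNAs and a short ribosomal RNA. Of 21 genes of its subunits and factors, 14 had negative ratios with shRNA63 and 9 with shRNA95. POLR3GL, which encodes one of 2 alternative forms of a subunit, was called higher with shRNA63, at 22.1 against 13.9 FPKM (log2 fold change 0.66, error 0.28, q = 0.0185 in the authors' deposited table). It was at 17.8 against 13.5 FPKM in the libraries labelled shRNA95, without a call. The other form, POLR3G, was at 27.4 against 29.6 FPKM and at 31.8 against 28.7 FPKM, also without a call. GTF3C4, a subunit of the factor TFIIIC, was called lower in the libraries labelled shRNA95, at 9.29 against 15.3 FPKM (q = 0.0200 in the authors' deposited table), and was at 12.1 against 15.8 FPKM with shRNA63. Calls in that list were thus 1 of 21 with each hairpin, against 5.74% and 5.04% of measured genes.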
